A study of Mus musculus with 24 samples.

Results

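Iron entry, storage, export and the hormone that controls them were followed through 10 genes in mouse liver: Hamp, Hamp2, Bmp2, Bmp6, Id1, Tfrc, Tfr2, Slc40a1, Fth1 and Ftl1. The genes were listed by name, with earlier results of these data known, and all 10 were found by symbol among the 56205 gene rows of the count table. Each library held poly(A) RNA from whole liver of a C57BL/6J mouse kept for 20 weeks on a methionine-choline deficient (MCD) diet or on a control diet, with 12 libraries per diet. By its name the MCD diet lacks methionine and choline, and the study's methods list it as high in fat, whereas the results of the study call a choline-deficient model CDAHFD (amino acid-defined, high fat). The labels' name is kept here, and whether methionine was withheld is thus uncertain. The iron content of either diet is not given in the sources used here. Both sexes were fed, with 6 animals per sex and diet, but no label gives the sex, litter or batch of a single library, so p-values measure the spread among the libraries of a diet.

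Hepcidin, the product of Hamp, is a peptide hormone that hepatocytes secrete when iron is plentiful. It binds ferroportin, the iron exporter encoded by Slc40a1, and causes its removal from the cell surface, so that less iron enters plasma from macrophages, hepatocytes and the gut. In liver, the ligands BMP6 and BMP2 come mainly from sinusoidal endothelial cells and act on hepatocyte BMP receptors, whose SMAD proteins switch on Hamp together with Id1, a general target of the same signal. Transferrin receptor 2 (Tfr2) takes part in sensing iron-loaded transferrin on hepatocytes, transferrin receptor 1 (Tfrc) imports it, and the ferritin heavy and light chains (Fth1, Ftl1) form the shell in which iron is stored.

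Total counts ran from 16793207 to 24915175 in control libraries and from 16388650 to 24577848 in MCD libraries. Levels are given as counts scaled to library size (CPM) after scaling by trimmed mean of M values (TMM), with factors of 0.642 to 0.973 in control and of 1.07 to 1.26 in MCD libraries, so that every MCD factor was the larger. Control replicate 12 had the lowest factor, 0.642, and the next control library 0.792, so fold changes and counts that moved most without it are also given without it. Scaling by total counts alone moved the log2 fold change up by 0.36 at the median gene, so each fold change below is relative to the TMM scale. The tissue label was checked against 14 hepatocyte markers, of which 0 were absent from every library. Alb alone held a median of 75517 CPM in control and 53763 CPM in MCD livers.

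**Figure D1:**
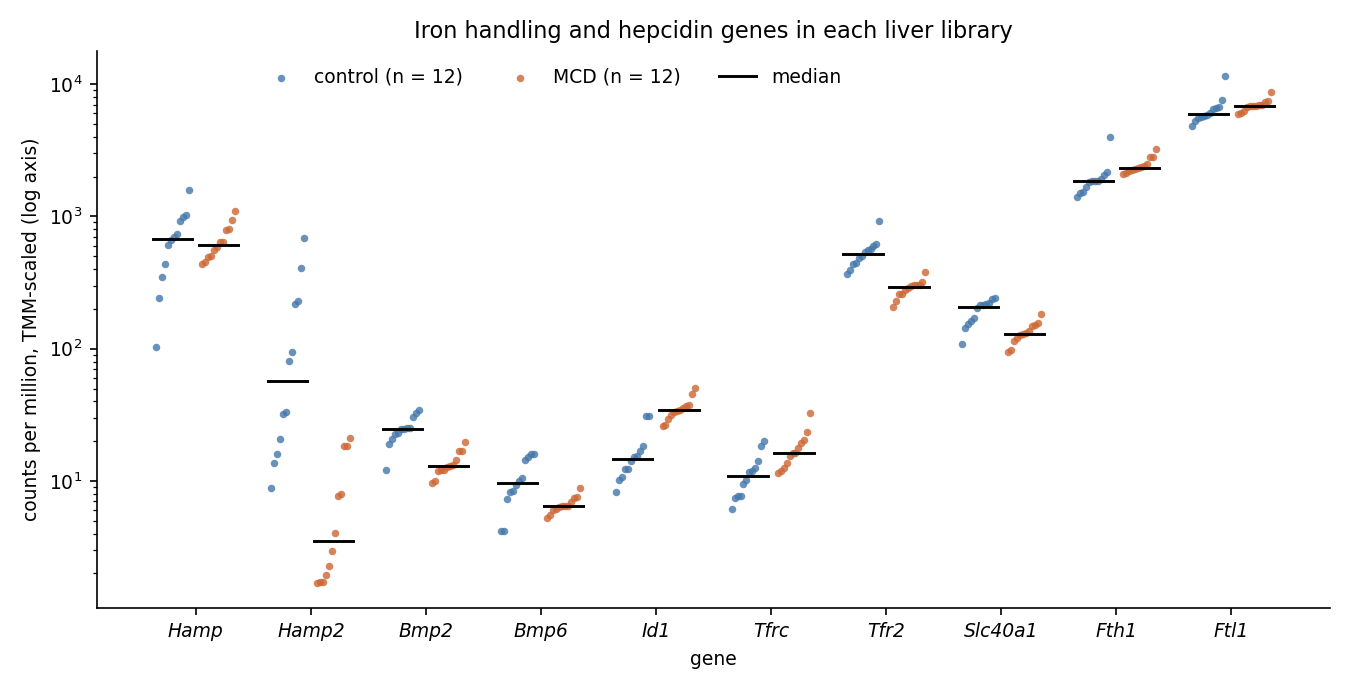
TMM-scaled CPM (log axis) of the 10 genes in each of the 12 control and 12 MCD libraries, with points for libraries in rising order and a black line at the median. Hamp2 spans 8.78 to 681 CPM in control livers and 1.71 to 21.0 CPM in MCD livers, whereas the Hamp medians lie at 680 and 610 CPM.

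The diets were compared with the quasi-likelihood test of edgeR for each of the 14109 genes left by the filter on low counts, which all 10 genes passed. A gene was called at a false discovery rate (FDR, Benjamini-Hochberg) of 0.01 or less with an absolute log2 fold change above 0.5. Of the 10 genes, 2 were higher in MCD livers (Id1 and Tfrc), beside 19.2% of all tested genes. Lower in MCD livers were 5 (Hamp2, Bmp2, Bmp6, Tfr2 and Slc40a1), beside 19.1% of all tested genes. Hamp, Fth1 and Ftl1 did not pass. The 7 called genes stand beside 38.3% of all tested genes called in either direction. For 0 of the 10 genes did the libraries of the diets separate fully, beside 14.4% of all tested genes (9.5% with MCD above and 4.88% with MCD below), and Tfr2 separated without control replicate 11 or MCD replicate 3.

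Hamp, on chr7:30942368-30944032 (minus strand, GRCm38), did not pass the test. Its level in control livers had a lowest value of 102 CPM, a median of 680 CPM and a highest of 1587 CPM. In MCD livers the same values were 434, 610 and 1106 CPM. The diets overlapped throughout, and the lowest and highest Hamp levels of all 24 libraries were both in control livers, in replicates 1 and 7. The log2 fold change stood at -0.07 (SE 0.28, edgeR FDR 0.84), with a 95% confidence interval from -0.65 to 0.51, and its sign changed with the scaling.

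Hamp2 lies near Hamp on the same strand (chr7:30922372-30924681, minus strand, GRCm38). It is a second hepcidin gene of the mouse, and its peptide is not known to regulate iron as hepcidin does. Control livers held from 135 to 14640 Hamp2 counts, or 8.78 CPM at the lowest, 56.6 CPM at the median and 681 CPM at the highest. MCD livers held from 37 to 510 counts, or 1.71, 3.51 and 21.0 CPM. In 9 of 12 MCD livers the level was below that of every control liver, and the other 3 overlapped the lower control livers. Hamp2 was 20.4-fold lower in MCD livers, the largest difference among the 10 genes (log2 fold change -4.35, SE 0.74, 95% confidence interval -5.86 to -2.84, edgeR FDR 1.22e-05), and with limma-voom the log2 fold change was smaller, at -3.72 (FDR 0.00013). Beside these values, hepatocyte markers summed to 96272 to 221864 CPM in control and 73649 to 102256 CPM in MCD livers, with 7 of 14 markers lower and 0 higher, and their part in the result was not tested. In whole liver, fewer cells of a type and less RNA per cell cannot be told apart.

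The upstream sequences of Hamp and Hamp2 are shown because both genes share most of this sequence and yet Hamp2 passed the test while Hamp did not. RefSeq promoter windows (GRCm38.p6, the build the labels call mm10) were found for 7 of the 10 genes. The 120 bases before each RefSeq start site are printed 5′ to 3′ on the minus strand, chr7:30944030-30944149 for Hamp and chr7:30924182-30924301 for Hamp2. The window of Hamp2 lies inside its GENCODE span given above, which reaches further upstream, to 30924681, than the RefSeq start. Capitals mark the GGCGCC block of Hamp, the core of known BMP-responsive elements, with its aligned block in Hamp2, and the TTCNNNGAA block, the form of a STAT binding site:
Hamp: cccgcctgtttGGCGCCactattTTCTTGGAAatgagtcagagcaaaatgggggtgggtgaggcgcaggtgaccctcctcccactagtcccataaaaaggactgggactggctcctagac
Hamp2: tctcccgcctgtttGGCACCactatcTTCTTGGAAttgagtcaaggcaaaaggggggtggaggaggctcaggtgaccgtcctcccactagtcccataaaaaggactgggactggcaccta

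The aligned upstream windows were identical at 227 of 247 bases (91.9%), with 20 substitutions and no gap. One substitution fell in the first block, G106A, counted upstream from the start site of Hamp, with the Hamp base first. GGCGCC, which reads the same on both strands, was thus present in Hamp (first base at -109) and not in the Hamp2 window, whereas TTCNNNGAA, which also reads the same on both strands, was present in both (first base at -97 in Hamp and -94 in Hamp2). Of 32851 mouse promoter windows, 11.866% held GGCGCC and 8.298% held TTCNNNGAA, so that neither block is rare. Among the other genes with a window, Tfrc held GGCGCC at -89 in 1 of its windows. The matches describe letters and not bound sites.

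Since the copies are alike, their transcripts could share reads. The coding sequences were 93.7% identical, and the last 75 coding bases, which encode the mature peptide of Hamp and its counterpart, were identical at 61 positions. They are printed 5′ to 3′ as coding strand with the differing bases in capitals, to show how far the reads of the copies can be told apart:
Hamp: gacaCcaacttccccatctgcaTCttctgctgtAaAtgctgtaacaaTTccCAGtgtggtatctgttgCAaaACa
Hamp2: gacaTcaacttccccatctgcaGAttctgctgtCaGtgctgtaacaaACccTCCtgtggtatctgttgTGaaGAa

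How reads that fit both copies were counted is not given in the sources used here. The ratio of Hamp2 to Hamp counts within a library does not depend on library scaling. Its median was 0.123 in control livers, or 1 Hamp2 count per 8.16 Hamp counts, and 0.00663 in MCD livers, or 1 per 151. The mean log2 ratio was -3.15 ± 1.77 in control and -7.06 ± 1.18 in MCD livers (SD, n = 12 each), a difference of -3.91 (two-sided permutation test with 100000 resamples, p = 2e-05, 5e-05 adjusted over 5 ratios). In 6 MCD livers the ratio lay in a narrow band from 0.00342 to 0.00386, and the next library stood at 0.0094. Whether these few Hamp2 counts stem from Hamp transcripts was not tested, and the Hamp2 level of those 6 livers is uncertain. Hamp2 also overlaps the lincRNA Gm44662 on the opposite strand, and the study's stranded library kit is described without naming the mouse libraries, so whether strand was used in counting is not given in the sources used here.

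Bmp2 and Bmp6, the ligands upstream of hepcidin, were both lower in MCD livers. Bmp2 (chr2:133552159-133562885, GRCm38) ranged from 12.2 to 34.1 CPM in control livers, with a median of 24.7 CPM, and from 9.60 to 19.7 CPM in MCD livers, with a median of 12.9 CPM. In 5 MCD livers the level was below every control liver, and in 11 without control replicate 12. It was 1.82-fold lower with diet (log2 fold change -0.86, SE 0.14, edgeR FDR 4.31e-06).

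Bmp6 (chr13:38345107-38500302, GRCm38) ranged from 4.16 to 16.1 CPM in control livers (median 9.67 CPM) and from 5.28 to 8.81 CPM in MCD livers (median 6.43 CPM). Every MCD liver lay within the control range, which was the wider one. The log2 fold change stood at -0.64 (SE 0.18, edgeR FDR 0.00344), and with total counts alone it was -0.31 and did not pass (FDR 0.207). Nor did it pass with upper-quartile factors (FDR 0.0245), at least 10 counts in every sample (0.0103), limma-voom (0.0126) or the replicate block (0.0198). The call was also lost when control replicate 3 or any of MCD replicates 2, 3, 4, 6 and 12 was left out, with log2 fold changes from -0.60 to -0.54 and FDRs from 0.0102 to 0.0136. Bmp6 overlaps Txndc5 on the opposite strand, so its counts are uncertain if strand was not used.

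Endothelial markers moved in the same direction as both ligands. Of 14 such markers, 10 were lower and 0 higher in MCD livers, with a median log2 fold change of -0.63, and 0 were absent from every library. Their summed level ran from 406 to 630 CPM in control and from 314 to 409 CPM in MCD livers. The part of this shift in the ligand differences was not tested. The ratio of Bmp6 to Bmp2 counts had medians of 0.37 and 0.5 and did not pass (mean log2 difference 0.32, two-sided permutation test, p = 0.0964, 0.12 adjusted over 5 ratios).

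Id1, a target of BMP and SMAD signalling, moved against Bmp2 and Bmp6. Its level (chr2:152736251-152737410, GRCm38) was 8.32 CPM at the lowest, 14.6 CPM at the median and 31.1 CPM at the highest in control livers, and 26.1, 34.1 and 50.2 CPM in MCD livers. In 9 of 12 MCD livers Id1 exceeded every control liver, and only control replicates 4 and 7, at 31.1 and 30.8 CPM, reached the MCD range. Id1 was 2.15-fold higher in MCD livers (log2 fold change 1.10, SE 0.18, edgeR FDR 7.47e-06), and it remained past the threshold in all 24 fits that left out 1 library. Id1 is expressed by several liver cell types, and stellate and mesenchymal markers (281 to 745 CPM summed in control, 908 to 1564 CPM in MCD, 10 of 14 higher, 1 lower) rose beside it, as did proliferation markers (11.4 to 30.1 CPM and 36.5 to 62.4 CPM, 10 of 11 tested higher, 0 lower). Their part in the Id1 result was not tested.

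Tfr2 and Tfrc, the transferrin receptors, moved in opposite directions. Tfr2 (chr5:137569840-137587481, GRCm38) ranged from 370 to 918 CPM in control livers (median 519 CPM) and from 205 to 378 CPM in MCD livers (median 292 CPM). In 11 of 12 MCD livers it was below every control liver. It was 1.88-fold lower (log2 fold change -0.91, SE 0.12, edgeR FDR 4.24e-07), and without control replicate 12, which held the highest level, the log2 fold change was -0.78 (FDR 1.8e-07). Hepatocyte markers, which were lower in 7 of 14 cases as given beside Hamp2, had a median log2 fold change of -0.55, and their part in the Tfr2 result was not tested.

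Tfrc (chr16:32608920-32632794, GRCm38) ranged from 6.13 to 20.1 CPM in control livers (median 10.9 CPM) and from 11.5 to 32.8 CPM in MCD livers (median 16.2 CPM). In 3 MCD livers it exceeded every control liver, and the rest overlapped the upper control livers. Tfrc was 1.54-fold higher (log2 fold change 0.62, SE 0.19, edgeR FDR 0.00591). The call was lost when any of control replicates 4, 5, 6, 7 and 9 or MCD replicate 1 was left out, with log2 fold changes from 0.50 to 0.60 and FDRs from 0.0104 to 0.0152. Tfrc is also high in red cell precursors and dividing cells. Of 6 erythroid markers tested, 0 were higher and 5 lower in MCD livers (350 to 1766 CPM summed in control, 187 to 459 CPM in MCD), with Epb42 at a median of 0 CPM in both diets, while proliferation markers were higher as given above. The part of dividing cells in the Tfrc result was not tested.

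The median ratio of Tfr2 to Tfrc counts within a library fell from 50.6 in control to 17.7 in MCD livers. The mean log2 ratio was 5.60 ± 0.75 and 4.07 ± 0.42 (SD, n = 12 each), a difference of -1.53 (two-sided permutation test with 100000 resamples, p = 1e-05, the smallest they can give, 5e-05 adjusted over 5 ratios). In 7 MCD livers the ratio was below every control liver, and in all 12 without control replicate 11.

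**Figure D2:**
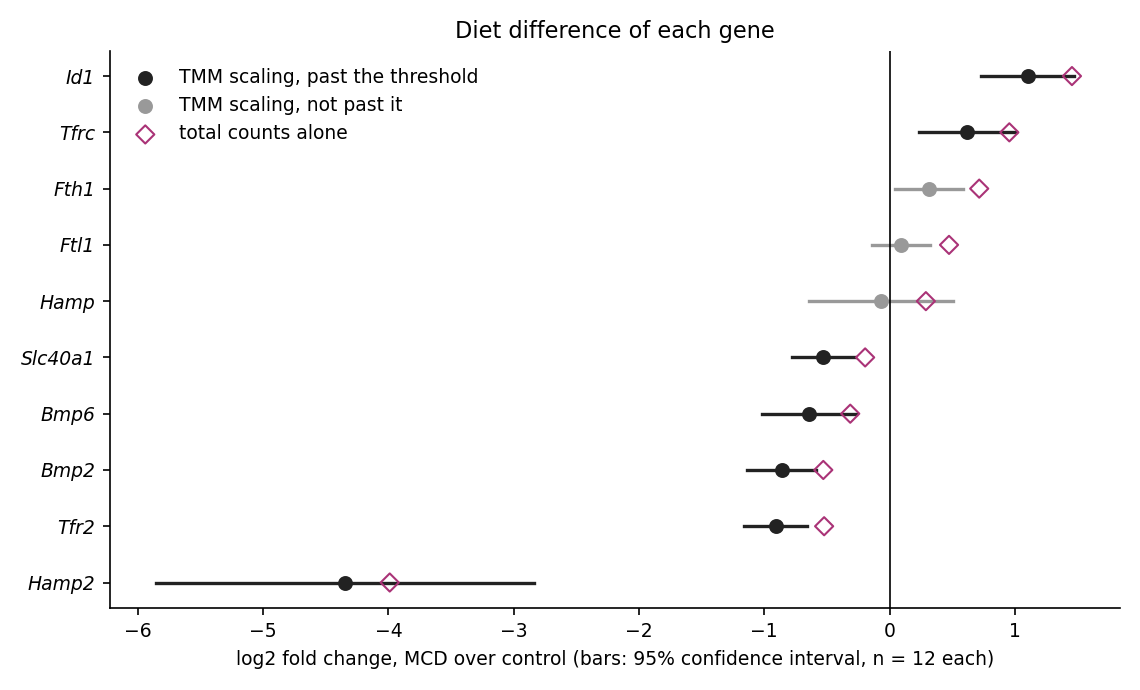
Log2 fold change of each gene, MCD over control, with TMM scaling (circles, black where past the threshold and grey where not, bars for the 95% confidence interval, n = 12 each) and with total counts alone (open diamonds). Hamp2 stands lowest at -4.35 and Id1 highest at 1.10, and total counts alone moves every gene to the right, Hamp across 0 to 0.29.

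Slc40a1, the exporter that hepcidin removes, was lower in MCD livers. It lies on chr1:45908068-45926523 (minus strand, GRCm38) and ranged from 108 to 240 CPM in control livers (median 208 CPM) and from 93.8 to 183 CPM in MCD livers (median 130 CPM). In 2 MCD livers the level was below every control liver, and in 8 without control replicate 12, the lowest of its group (in 1 without MCD replicate 2 or 10). The log2 fold change stood at -0.53 (SE 0.12, edgeR FDR 0.000505), close to the limit of 0.5. It fell short of that limit with relative log expression factors and with DESeq2 (both -0.47), upper-quartile factors (-0.39), no filter on low counts (-0.49) and at least 10 counts in every sample (-0.45), and also when any of MCD replicates 2, 6, 7, 8, 10 and 11 was left out (-0.49 to -0.45), and with total counts alone it was -0.19 (FDR 0.248). Kupffer cells, the resident liver macrophages, express much ferroportin, and of 12 Kupffer markers 5 were lower and 5 higher in MCD livers. Cd163, Timd4, Marco, Clec4f and Vsig4 were the lower ones, although the markers together summed to 298 to 822 CPM in control and 745 to 1013 CPM in MCD livers, and their part in the Slc40a1 result was not tested. With total counts alone Marco (-0.78), Clec4f (-0.77) and Vsig4 (-0.36) did not pass, Marco was also lost with limma-voom (FDR 0.0109), and Vsig4 was lost in 9 of 24 fits that left out 1 library.

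Fth1 and Ftl1, the ferritin chains, were the most abundant of the 10 genes in reads and did not pass the test. Fth1 (chr19:9980598-9985098, GRCm38) ranged from 1393 to 4002 CPM in control livers (median 1856 CPM) and from 2100 to 3260 CPM in MCD livers (median 2341 CPM). Its log2 fold change was 0.31 (SE 0.13, 95% confidence interval 0.04 to 0.59, edgeR FDR 0.0402). Control replicate 12 had the highest level of all libraries. Without it the log2 fold change was 0.49 (edgeR FDR 1.41e-05), still under the limit of 0.5. In 0 MCD livers Fth1 exceeded every control liver, and in 10 without control replicate 12. With total counts alone Fth1 passed, at 0.72 (FDR 1.51e-06).

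Ftl1 (chr7:45457944-45459884, minus strand, GRCm38) ranged from 4841 to 11505 CPM in control livers (median 5981 CPM) and from 5997 to 8777 CPM in MCD livers (median 6844 CPM). The log2 fold change was 0.09 (SE 0.11, 95% confidence interval -0.14 to 0.32, edgeR FDR 0.489). Control replicate 12 again had the highest level, and without it the log2 fold change was 0.23 (FDR 0.009). With total counts alone it was 0.47 (FDR 7.74e-05), and neither passed the limit of 0.5. Ferritin has many processed copies, of which Ftl1-ps1 held 0 to 36 counts per library and the other named copies at most 5. Ftl1 overlaps the miRNA gene Gm22133 on its own strand and Gm10252 on the other.

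The balance of the ferritin chains shifted within the libraries. The median ratio of Fth1 to Ftl1 counts was 0.291 in control and 0.352 in MCD livers, and the mean log2 ratio was -1.74 ± 0.17 and -1.50 ± 0.08 (SD, n = 12 each). The difference of 0.24 passed a two-sided permutation test (100000 resamples, p = 0.0005, 0.000833 adjusted over 5 ratios), and 1 MCD liver exceeded every control liver, a count that was 8 without control replicate 1 and 0 without MCD replicate 10. The ratio of Tfrc to Fth1 counts differed by 0.29 on the log2 scale and did not pass (p = 0.276 by the same permutation test, 0.276 adjusted over 5 ratios), and without control replicate 12 the difference was 0.11.

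**Figure D3:**
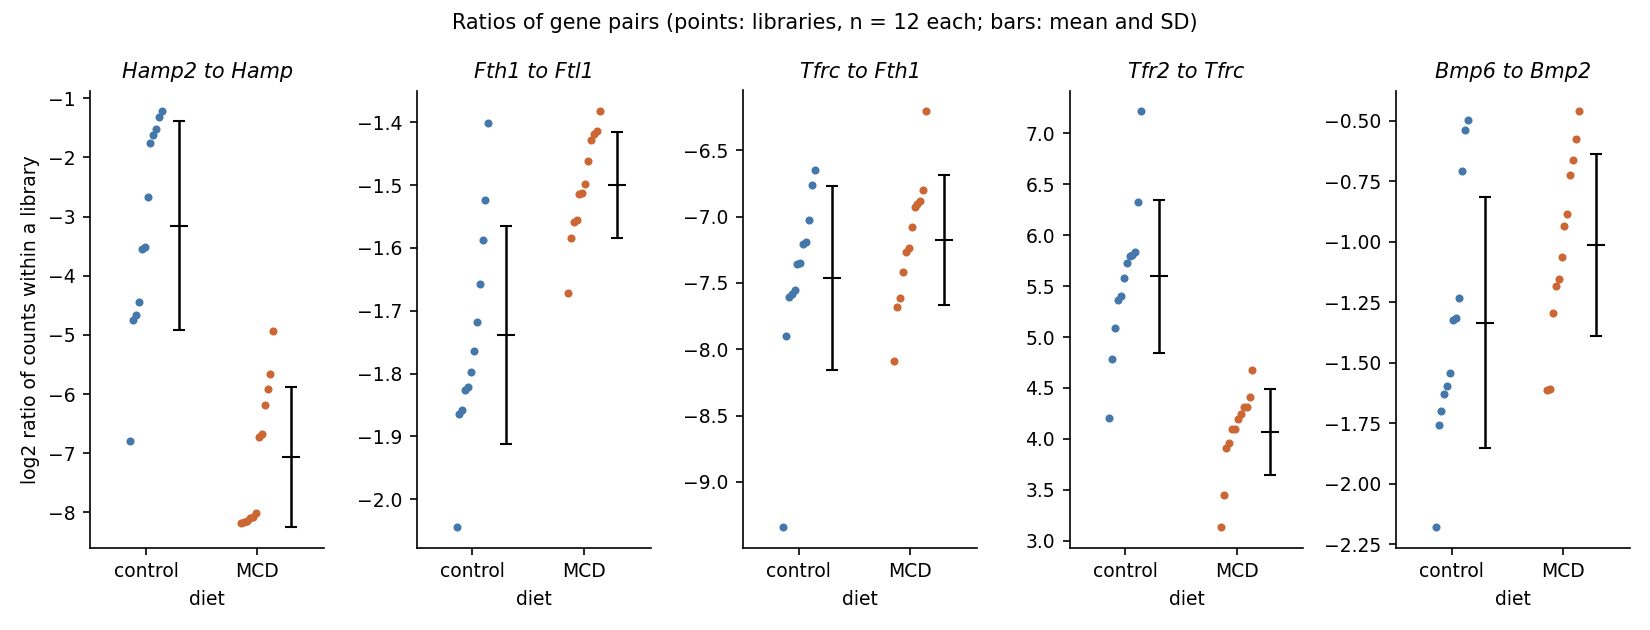
Log2 ratio of counts of 5 gene pairs within each library (points, 12 control and 12 MCD), with bars for the mean and SD, each pair on its own axis. Hamp2 to Hamp and Tfr2 to Tfrc are lower in MCD livers (differences of -3.91 and -1.53), and Fth1 to Ftl1 is higher by 0.24.

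The mRNAs of the ferritins, ferroportin and transferrin receptor 1 carry iron-responsive elements, stem loops bound by iron regulatory proteins when iron is low. Binding near the 5′ end blocks translation of ferritin and ferroportin, and binding in the 3′ region stabilises the Tfrc mRNA, so for Fth1, Ftl1 and Slc40a1 the counts do not report the amount of protein. The elements found in the GENCODE transcripts are shown because they group these genes by how iron acts on them. Each has 29 bases, with the CAGTG of the loop in capitals:
Fth1: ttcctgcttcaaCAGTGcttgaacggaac
Ftl1: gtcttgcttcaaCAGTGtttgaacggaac
Slc40a1: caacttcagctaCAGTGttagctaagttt
Tfrc element 1: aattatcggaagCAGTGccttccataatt
Tfrc element 2: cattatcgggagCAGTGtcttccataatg
Tfrc element 3: ctatatcggagaCAGTGatctccatatgt
Tfrc element 4: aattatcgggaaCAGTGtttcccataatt

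The elements of Fth1, Ftl1 and Slc40a1 lie in the 5′ UTR and the 4 of Tfrc in the 3′ UTR. A search of the same pattern found it in 0.092% of 5′ UTRs (18 of 19632 genes) and in 0.557% of 3′ UTRs (110 of 19740 genes). Of the 3 genes with a 5′ element, Slc40a1 was lower and both ferritins did not pass, and Tfrc, with the 3′ elements, was higher in MCD livers.

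Levels can be set against each other only per transcript length, here as CPM per kilobase of the longest consensus coding transcript. In control livers the medians ran in the order Ftl1 (6179), Hamp (1659), Fth1 (1242), Tfr2 (169), Hamp2 (130), Slc40a1 (61.8), Id1 (15.6), Bmp2 (6.96), Bmp6 (2.69) and Tfrc (2.23). Neighbours in that order did not overlap in range for Ftl1 and Hamp or for Fth1 and Tfr2. The ranges of all other neighbours overlapped, but ranges compare different livers and do not give the order within a liver. Bmp6 to Bmp2 counts, from transcripts of 3593 and 3555 bases, had a ratio of at most 0.708 in any control liver. The order of the other neighbours within livers was not tested. In MCD livers Hamp2 had moved by median from the fifth to the seventh place, at 8.02 CPM per kilobase. Its median lay below those of Slc40a1 (38.6) and Id1 (36.5), although its range reached 48.0 and overlapped theirs. By median, Fth1 (1567) also stood above Hamp (1488) in MCD livers, and Tfrc (3.31) above Bmp6 (1.79). Whether these places changed within livers was not tested.

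Because both sexes were fed, each gene was also related to a sex-linked expression score, in which the mean log2 CPM of 4 Y-linked genes is subtracted from that of Xist. The score is used only as a number. It ran from -8.07 to 12.46 in control and from -7.24 to 11.08 in MCD livers, with 6 libraries above and 6 below 0 in each diet and none between -5.21 and 10.7. In an edgeR fit with diet and score, 2 of the 10 genes had a slope past an FDR of 0.01, both positive, beside 3.48% of all tested genes (1.79% with a positive slope). Hamp2 rose by 1.80 on the log2 scale per 10 units of the score (SE 0.21, FDR 8.31e-07) and Id1 by 0.34 (SE 0.08, FDR 0.00433). Hamp had a slope of 0.45 (SE 0.13, FDR 0.0336), which did not pass.

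With the score as a covariate, the diet difference of Hamp2 was -3.88 and its SE fell from 0.74 to 0.38 (edgeR FDR 1.96e-09). The same fit gave -0.03 for Hamp (SE 0.23, FDR 0.918), and no gene of the 10 changed its call under it. The diet by score interaction passed for 0 of the 10 genes at an FDR of 0.01 in edgeR, beside 0.411% of all tested genes. The lowest interaction FDR was that of Bmp6 (0.153, unadjusted p = 0.00492), with slopes of 0.47 in control and 0.01 in MCD livers per 10 units, and it was the only one of the 10 with an unadjusted p under 0.05.

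**Figure D4:**
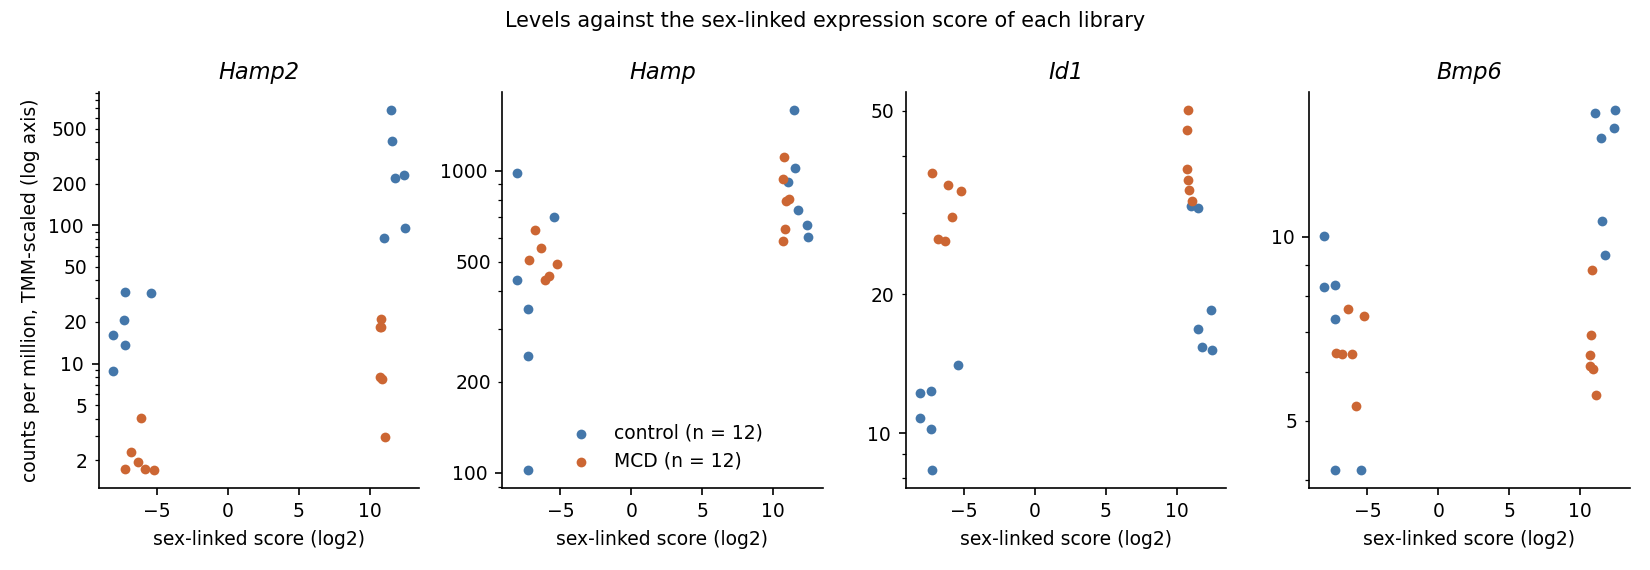
TMM-scaled CPM (log axis) of Hamp2, Hamp, Id1 and Bmp6 against the sex-linked score in 12 control and 12 MCD libraries, each point a library. Hamp2 is higher at high scores in both diets and lower in MCD at either end, with control livers up to 681 CPM and MCD livers up to 21.0 CPM.

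Levels of the pathway genes were related within each diet, over 12 libraries and 8 relations per measure, by two-sided permutation tests with 100000 resamples. In control livers Id1 and Hamp rose together, with Pearson's r = 0.79 (p = 0.00305, adjusted 0.0244) and Spearman's rho = 0.73 (p = 0.00844, adjusted 0.0338). With the 2 libraries most distant from the Id1 median left out, r was 0.82 (permutation test, adjusted 0.0257), but rho, at 0.68, no longer passed (adjusted 0.142). Bmp6 and Id1 were related in control livers too, with r = 0.71 (p = 0.0109, adjusted 0.0401) and rho = 0.76 (p = 0.00538, adjusted 0.0338), and with the 2 most distant libraries left out r was 0.77 (adjusted 0.0335) and rho was 0.72, which did not pass (adjusted 0.142).

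In MCD livers the same pairs gave r = 0.14 (adjusted 0.76) and rho = 0.27 (adjusted 0.538) for Id1 and Hamp, and r = 0.34 (adjusted 0.368) and rho = 0.18 (adjusted 0.654) for Bmp6 and Id1, by the same permutation tests. Whether the relations differ between the diets was not tested. Bmp6 and Hamp had r = 0.60 in control (adjusted 0.0778; rho = 0.42, adjusted 0.281) and 0.01 in MCD livers (adjusted 0.978; rho = -0.06, adjusted 0.85). Hamp2 and Hamp had r = 0.52 in control (adjusted 0.125; rho = 0.49, adjusted 0.218) and 0.69 in MCD livers (p = 0.015, adjusted 0.0401; rho = 0.66, adjusted 0.0581), the latter 0.72 with the 2 most distant libraries left out (adjusted 0.0468). In 6 of these MCD livers Hamp2 counts were a near-constant share of Hamp counts, as given above, and the part of shared reads in this r was not tested.

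Some of these calls depended on which libraries were included. Each run left out the same-numbered library of both diets and adjusted over all 8 relations. A changed call may thus not stem from the named library alone, whereas each r and rho depends on its own diet only. The r of Id1 and Hamp in control livers missed 0.05 after adjustment without replicate 1 (0.74) or 7 (0.73), that of Bmp6 and Id1 without replicate 1, 4, 5, 7 or 11 (0.61 to 0.70), and that of Hamp2 and Hamp in MCD livers without replicate 1, 4, 5, 7, 9, 10, 11 or 12 (0.60 to 0.71). In control livers the r of Bmp6 and Hamp passed without replicate 12 (0.77) and the r of Hamp2 and Hamp without replicate 10 (0.71). There, rho lost its call in 7 of 12 such runs for Id1 and Hamp (without replicate 1, 5, 6, 7, 8, 9 or 11) and in 5 of 12 for Bmp6 and Id1 (without replicate 1, 5, 7, 8 or 11).

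The libraries form 2 clusters by the sex-linked score, so the relations were repeated on residuals from the score. None of the 8 then passed 0.05 on either measure after adjustment in a permutation test. The r of Id1 and Hamp in control livers was 0.64 (p = 0.0241, adjusted 0.128), that of Bmp6 and Id1 was 0.32 (adjusted 0.597). In MCD livers the r of Id1 and Hamp was -0.62 (permutation p = 0.0319, adjusted 0.128), and that of Hamp2 and Hamp was 0.15 (adjusted 0.853).

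As a description, the genes most like Hamp and Hamp2 were ranked by Pearson's r of log2 CPM after subtracting each diet's mean, over 24 libraries and 10114 genes. Nearest to Hamp were Ces1b, a carboxylesterase (r = 0.82), Gm4673 (0.76), the small nucleolar RNA host gene Snhg6 (0.74), the retinol dehydrogenase family gene Rdh16f2 (0.70) and Smad7, an inhibitory SMAD and target of BMP signalling (0.70). Id1 followed at rank 9 (r = 0.68), and Hamp2 stood at rank 112 (r = 0.55). Nearest to Hamp2 were the sulfotransferases Sult2a2 (r = 0.88) and Sult2a1 (0.87), AC138228.2 (0.88), 9030619P08Rik (0.86) and the cytochrome Cyp2b13 (0.86). The last, like the Sult2a genes, is known for higher levels in female mouse liver. Hamp stood at rank 280 in the Hamp2 order. Points within a diet share the score clusters described above.

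Other genes of the pathway were examined through 4 lists that hold none of the 10 genes. Together 11 listed genes were higher and 20 lower in MCD livers of 96 tested, beside 19.2% higher and 19.1% lower of all tested genes, while total counts alone gave 23 higher and 6 lower. Of the lower genes named below, Id4, Tmprss6, Slc39a14, Ireb2, Aco1 and Cpox did not pass with total counts alone, at -1.07, -0.38, -0.42, -0.41, -0.27 and -0.42. Over all 14109 genes the median change was -0.10 on the log2 scale.

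Among regulators of hepcidin, 3 of 34 tested genes were higher and 6 lower, with a median log2 fold change of -0.18. Total counts alone gave 7 higher and 2 lower, and leaving out 1 library gave 3 to 4 higher and 5 to 9 lower. Of the other targets of BMP signalling, Id3 and Atoh8 were higher, Id4 was lower, and Id2 (-0.0067, edgeR FDR 0.962), Smad6 (0.011, FDR 0.958) and Smad7 (-0.18, FDR 0.441) did not pass, with positive values for Id2 (0.36) and Smad7 (0.15) under total counts alone. Id3 ran from 39.6 to 90.7 CPM in control and 82.6 to 142 CPM in MCD livers (log2 fold change 0.86, edgeR FDR 3.7e-06), and Atoh8 from 15.8 to 68.8 CPM and 31.1 to 54.0 CPM (0.67, FDR 0.00418). Gdf2, which encodes the ligand BMP9, was higher, at 14.3 to 31.1 CPM in control and 23.7 to 48.0 CPM in MCD livers (0.58, edgeR FDR 7.61e-05), and 8 of 12 MCD livers exceeded every control liver. The ligand Bmp7 (-1.80, edgeR FDR 1.13e-07) and Id4 (-1.39, FDR 0.00133) were lower, both under 12 CPM in every library. Acvr2a (-0.87, edgeR FDR 1.53e-05), Cebpa (-0.83, FDR 6.6e-10) and Furin (-0.58, FDR 1.05e-06) of this list were lower too. Their values under other settings are not given here. Tmprss6, the protease that curbs hepcidin by cleaving hemojuvelin, was lower in 12 of 12 MCD livers than in any control liver (587 to 1056 CPM against 372 to 478 CPM, log2 fold change -0.76, edgeR FDR 2.83e-08). Hfe2, which encodes hemojuvelin, was at -0.50 (FDR 0.000123) and Hfe at 0.02 (FDR 0.811), and neither passed, although Hfe2 did so in 8 of 24 fits that left out 1 library. Il6, whose product induces Hamp in inflammation, was too low to be tested.

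Among iron uptake and transport genes, 6 of 26 were higher and 5 lower, with a median of 0.11. Total counts alone gave 10 higher and 2 lower, and leaving out 1 library gave 6 to 9 higher and 4 to 6 lower. Lcn2, which encodes a siderophore-binding protein of the acute phase, ran from 5.86 to 84.3 CPM in control and from 285 to 1289 CPM in MCD livers (log2 fold change 3.82, edgeR FDR 6.49e-10). Flvcr1, a transporter described for haem export and for choline uptake, was higher as well (1.07, FDR 9.65e-08). Cd163, the macrophage receptor for haemoglobin bound to haptoglobin, had a median of 18.3 CPM in control and 0.204 CPM in MCD livers, with 0 to 24 counts per MCD library (log2 fold change -6.14, edgeR FDR 1.32e-12). Lower were also Slc39a8 (-0.91, FDR 2.44e-09) and Slc39a14 (-0.78, FDR 7.07e-07), importers of iron and other divalent metals. Trf, which encodes transferrin, held medians of 20590 and 19528 CPM (log2 fold change -0.05, FDR 0.621) and did not pass, and its sign changed with the scaling.

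Among storage and sensing genes, 1 of 17 was higher and 6 were lower, with a median of -0.30. Total counts alone gave 2 higher and 1 lower, and leaving out 1 library gave 1 higher and 5 to 6 lower. The higher gene was Bola2, a partner of cytosolic glutaredoxin in iron-sulfur transfer (log2 fold change 0.60, edgeR FDR 0.00296). Epas1, which encodes hypoxia-inducible factor 2α, ran from 211 to 467 CPM in control and from 118 to 169 CPM in MCD livers (-1.07, edgeR FDR 8.71e-10). Ireb2, which encodes iron regulatory protein 2, ran from 29.6 to 112 CPM and from 34.9 to 54.6 CPM (-0.76, edgeR FDR 2.9e-05). Aco1, which encodes iron regulatory protein 1, was lower in 12 of 12 MCD livers than in any control liver (-0.63, edgeR FDR 1.81e-09).

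Among haem synthesis and breakdown genes, 1 of 19 was higher and 3 lower, with a median of -0.30 (4 higher and 1 lower with total counts alone). With 1 library left out the higher genes numbered 1 to 3, and their count changed in 12 of 24 such fits, to 3 without control replicate 12. Hmox1, the enzyme that breaks down haem and releases its iron, ran from 14.2 to 40.2 CPM in control and from 52.2 to 96.3 CPM in MCD livers, without overlap (log2 fold change 1.39, edgeR FDR 2.73e-09). Abcb10, a mitochondrial transporter needed for haem synthesis in red cell precursors, was lower (-1.07, edgeR FDR 2.94e-07), as was Cpox, a late enzyme of the haem pathway (-0.76, FDR 7.88e-05). Macrophages can express Hmox1. Markers of monocyte-derived macrophages summed to 63.6 to 357 CPM in control and 1498 to 3055 CPM in MCD livers, with 11 of 12 higher and 0 lower. The sum includes Spp1, also listed as a cholangiocyte marker, with medians of 50.1 CPM in control and 600 CPM in MCD livers. Cholangiocyte markers were higher in 9 of 10 cases and lower in 0. The part of either cell type in these results was not tested.

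**Figure D5:**
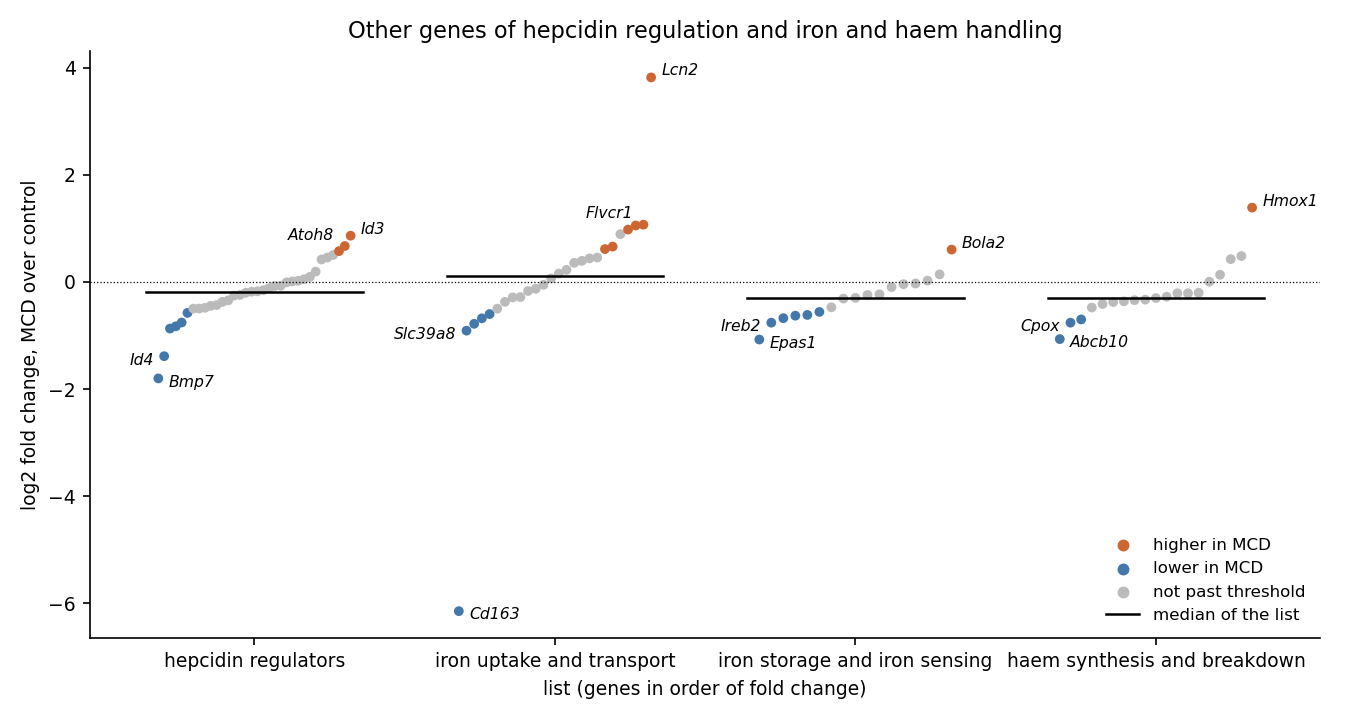
Log2 fold change, MCD over control, of every tested gene in 4 lists, in rising order within a list, coloured by whether it was higher, lower or not past the threshold in the TMM-scaled edgeR fit, with a black line at the median of the list. Lcn2 at 3.82 and Cd163 at -6.14 lie farthest from 0, and the list medians lie between -0.30 and 0.11.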

How the data were processed

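The authors deposited raw read counts per Ensembl gene, 1 column per library and no normalization. The submitters' processing notes name mm10, bcl2fastq and STAR 2.7.3a without roles. The study's supplement describes a stranded TruSeq kit, without naming the mouse libraries, and, for reads aligned to the human genome, the exon quantification pipeline (EQP) with STAR and PISCES for gene levels. The counting program, annotation and use of strand for the mouse libraries are not given in the sources used here. Of 56205 rows, 28652 were 0 in every library. Symbols were taken by identifier from GENCODE M21 for 51745 rows, and rows without a symbol held 0.0808% of counts. No 2 libraries were identical (0 pairs).

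Genes were kept with filterByExpr by diet, scaled with TMM and compared over all 24 libraries with edgeR 4.0.16 (glmQLFit, glmQLFTest) in R 4.3.3, without covariates, at an FDR of 0.01 and an absolute log2 fold change above 0.5, limits the study set for human liver. SEs are the log2 fold change over the square root of F. The biological coefficient of variation was 26.8%. Log2 CPM used a prior count of 2, and log2 ratios of counts a pseudocount of 0.5. Permutation tests (scipy 1.17.1, numpy 2.4.6, Python 3.11.15) were two-sided. Alternatives were other scalings, filters, thresholds, DESeq2 1.42.0, limma-voom 3.58.1, a replicate block, the sex-linked score and leaving out each library. Figures were drawn with matplotlib 3.10.9. On simulated counts of 14109 genes, 200 were shifted by log2 changes of 1 and 2, with as many up as down. In these edgeR found 182 (91%), 85 of size 1 and 97 of size 2, and called 2 unchanged genes. The simulated counts were built on the TMM-scaled library sizes, so they do not test the choice of scaling.

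The 10 genes and all lists were chosen with earlier results of these data known. The text names, per pathway list, up to 2 genes each way with the largest change past the threshold and at least 1 CPM on average, and the 5 genes most like Hamp and Hamp2 among those with at least 5 CPM on average. Tmprss6, Hfe, Hfe2, Il6, Slc39a14, Trf, Aco1, Gdf2, Id2, Smad6, the lower Kupffer markers and Alb were named after their values were seen. The same holds for Acvr2a, Cebpa and Furin. The interaction and slopes were called at an FDR of 0.01.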

Additional observations from a re-analysis of the deposited data

How the results depend on the processing

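Of 110 values of the 10 genes under other scalings, filters, models and thresholds, 87 kept their direction and their side of the threshold, 16 lost and 2 gained the call, and 5 changed sign, all of them Hamp. The Hamp log2 fold change was 0.081 with upper-quartile factors, 0.29 with total counts alone, 0.011 with at least 10 counts in every sample, 0.16 with limma-voom and 0.12 with the replicate block, and none of these passed. Lower genes numbered 3 of the 10 with upper-quartile factors, total counts alone or at least 10 counts in every sample, and a log2 limit of 1 left 1 higher and 1 lower. Listed pathway genes numbered 18 higher with upper-quartile factors, 23 higher and 6 lower with total counts alone, 18 higher and 44 lower when an FDR of 0.05 alone was the limit, and 4 higher and 5 lower with a log2 limit of 1. Of 412 values of 38 other named genes, 358 kept their direction and side of the threshold, 33 lost and 4 gained the call, and 17 changed sign. Id4 was lost with limma-voom too, at -0.96 and FDR 0.0507. Acvr2a, Cebpa and Furin are not among these 38. Rdh16f2 (0.13) and Smad7 (0.15) changed sign with total counts alone, and Cyp2b13 (0.016) and Sult2a2 (0.46) with limma-voom. Id2, near 0, turned to 0.059 with relative log expression factors or DESeq2, 0.15 with upper-quartile factors, 0.36 with total counts alone, 0.035 without a filter, 0.077 with at least 10 counts, 0.025 with limma-voom and 0.029 with the replicate block. Trf turned to 0.0043 with relative log expression factors or DESeq2, 0.096 with upper-quartile factors, 0.31 with total counts alone and 0.028 with at least 10 counts. The slope of Hamp on the score passed with total counts alone, at 0.51 per 10 units. The cause of these changes was not tested beyond the construction of each setting.

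Without the 2 libraries farthest from the x median, rho lost its call for Id1 and Hamp (0.68) and for Bmp6 and Id1 (0.72) in control livers, and in MCD livers the sign changed for Bmp6 with Id1 (r -0.32, rho -0.24) and with Hamp (r -0.27). On residuals of the score, r and rho were 0.64 and 0.71 for Id1 with Hamp and 0.32 and 0.32 for Bmp6 with Id1 in control, -0.62 and -0.57 for Id1 with Hamp in MCD livers, r was -0.029 in control and 0.15 in MCD livers for Hamp2 with Hamp, and rho was 0.10 for Bmp6 with Hamp in MCD livers. With total counts alone the last was 0.077, and rho of Hamp2 and Hamp in MCD livers passed at 0.73.

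With 1 library left out at a time, 1 to 2 of the 10 genes were higher and 3 to 5 lower (3 lower without MCD replicate 2 or 6), Hamp ran from -0.16 to 0.10, Id2 from -0.032 to 0.086, Smad6 from -0.045 to 0.14, Trf from -0.080 to 0.013 and Hfe from -0.022 to 0.081, the log2 ratio of Bmp6 to Bmp2 from 0.24 to 0.40, which passed without control replicate 4 or 6, and slopes on the score ran from 0.38 to 0.56 for Hamp, 0.30 to 0.37 for Id1 and -0.0040 to 0.071 for Tfr2. The Id1 slope lost its call without control replicate 9 (0.33), and the Hamp slope gained one without control replicate 10 (0.56). In control livers r ran from 0.73 to 0.86 for Id1 with Hamp, 0.61 to 0.81 for Bmp6 with Id1, 0.34 to 0.77 for Bmp6 with Hamp and 0.39 to 0.71 for Hamp2 with Hamp, and rho from 0.65 to 0.88, 0.69 to 0.84, 0.25 to 0.55 and 0.34 to 0.75. In MCD livers r ran from -0.11 to 0.59 for Bmp6 with Id1, -0.21 to 0.12 for Bmp6 with Hamp and 0.60 to 0.78 for Hamp2 with Hamp, and rho from -0.064 to 0.44, -0.33 to 0.036 and 0.61 to 0.79.

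Replicate numbers are shared between the diets, but only 8 of 12 same-numbered pairs had a correlation of deviations over 0.1 (range -0.28 to 0.35). In 0 of 12 pairs were both libraries each other's best match, so the numbers were not taken as pairs. The median correlation was nonetheless 0.23 in same-numbered and -0.059 in other pairs, and 10 of 12 same-numbered pairs lay on the same side of 0 on the sex-linked score (correlations of -0.042 to 0.35), against -0.28 and -0.21 for replicates 2 and 8, which did not. With the replicate block 2 of the 10 genes were higher and 4 lower, Bmp6 being the one lost (-0.54, edgeR FDR 0.0198), and listed pathway genes numbered 14 higher and 19 lower. Depth limits Cd163 in MCD livers, at 0 to 24 counts, and Hamp2 at its lowest 37 counts, where a count of 3 or fewer would be unresolved.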
